A study of Mus musculus with 28 samples.

Results

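The 12 libraries compared here were made from cells sorted from the lungs of mice challenged with papain, a plant cysteine protease that provokes allergic airway inflammation. They are 6 libraries labelled ILC2 (group 2 innate lymphoid cells) and 6 labelled basophil, of 28 libraries in the whole series, and they were taken by those labels. In each cell type 3 libraries came from mice given papain and 3 from mice given papain with FK506 (tacrolimus). All mice were wild-type C57BL/6 aged 8 weeks. The papain dose was 50 µg each day, given intranasally. Mice of the FK506 groups received 0.2 mg of FK506 each day, intraperitoneally, for 3 days and, after 2 days without it, for 3 further days together with papain. The 4 untreated libraries of these cell types were left out. The sample titles do not say whether the replicates of either cell type were separate animals. The p-values therefore measure the spread between these samples, which may be technical. That spread is estimated for each gene together with genes of similar level, so for single genes it can come out too small. Replicate numbers below are those of the labels: 1 to 3 within each ILC2 treatment, 4 to 6 for basophils under papain and 7 to 9 for basophils under papain + FK506.

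ILC2 are tissue-resident lymphocytes that carry no rearranged antigen receptor. Their development and identity depend on the transcription factors GATA3 and ROR-alpha, and they respond to alarm cytokines of the epithelium, above all IL-33, through the receptor chain ST2. On activation they release IL-5 and IL-13 and the growth factor amphiregulin, which call in eosinophils, drive mucus production and act in tissue repair. Basophils are rare granulocytes that bind IgE through the high-affinity Fc receptor, store histamine and granule proteases, and make IL-4. FK506 blocks the phosphatase calcineurin and with it the NFAT transcription factors, on which cytokine genes of lymphocytes depend.

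Values are the deposited CPM (reads of a gene relative to the library total, as the authors gave them), rescaled so that the 20022 genes with a value in all 12 libraries sum to 1000000 in each, and they are called CPM below. The basophil libraries held an estimated 2290951 to 3125000 reads, and the depth of the ILC2 libraries, whose values are whole numbers, is unknown. Between 3134 and 7240 genes were above 0 in an ILC2 library and between 6401 and 7894 in a basophil library. Gapdh, an enzyme of glycolysis common to all cells, had a listed value of 0 in 6 of the 12 libraries. A 0 is therefore only what the table lists, and where all libraries of a group are at 0 the adjusted p is given without a fold. The 6 basophil libraries and replicate 3 of each ILC2 treatment carry the same code in their file names, and the other 4 ILC2 libraries carry another code.

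The libraries were checked against marker genes before any comparison. The summed level of 22 ILC2 markers was 7584 to 8998 CPM in 5 ILC2 libraries and 363 to 660.4 in 5 basophil-labelled libraries. By these markers the remaining library of each cell type went against its label, that of the basophil-labelled group only in part. In ILC2 papain + FK506 replicate 3 the sum was 314 CPM, and Gata3, Il1rl1, Il13, Klrg1 and Thy1 were listed at 0. Its 15 macrophage markers summed to 17906, where the other ILC2 libraries had 0 to 2839, and its correlation across genes was 0.656 to 0.755 with the basophil-labelled libraries and 0.517 to 0.656 with the other ILC2 libraries. In basophil papain + FK506 replicate 7 the ILC2 markers summed to 3560 CPM, with Gata3 at 232 and Thy1 at 404. Macrophage markers summed to 5775 there, against 12953 to 25229 in the other basophil-labelled libraries. The correlation of replicate 7 was 0.626 to 0.671 with the other basophil-labelled libraries. With the ILC2 libraries it was 0.656 for papain + FK506 replicate 3 and 0.512 to 0.615 for the others. The reason why the 2 libraries stood apart was not tested. Results are given with all 12 libraries and without these 2. The 2 were picked by their ILC2 and macrophage markers. For such genes, more calls, larger differences and less overlap without the 2 are favoured by that choice and add no support. Another library, ILC2 papain replicate 3, had the ILC2 markers at 7584 but carried 10911 CPM of type 2 alveolar epithelial (AEC2) markers and the fewest genes above 0. AEC2 markers summed to more in basophil papain + FK506 replicates 7 (18714) and 8 (13952), and to 6536 in ILC2 papain + FK506 replicate 3.

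**Figure D1:**
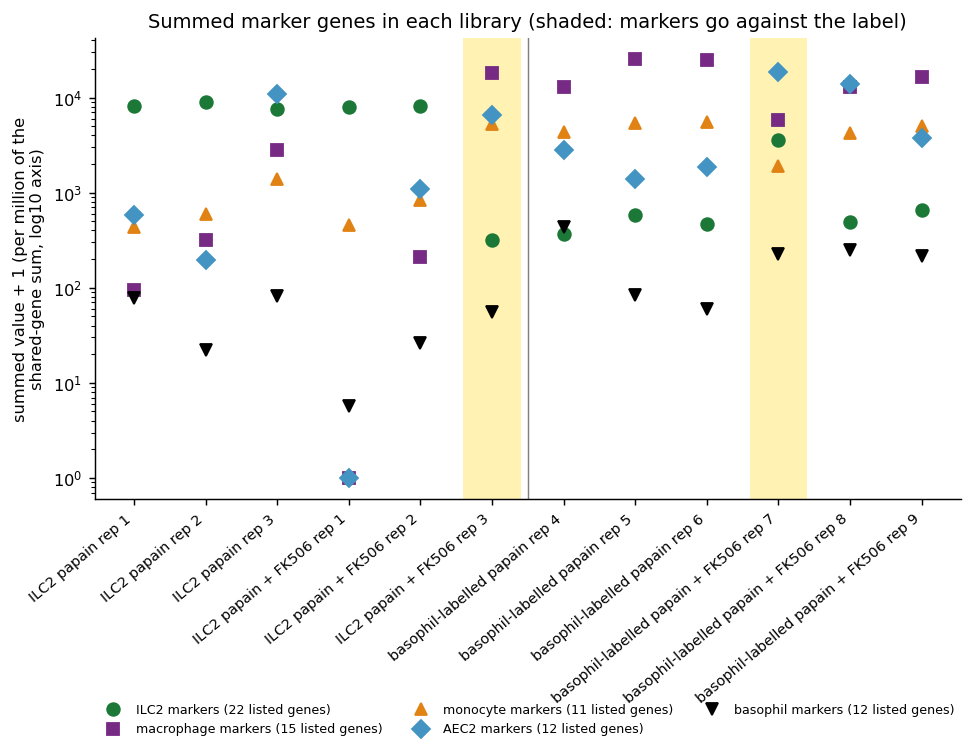
Summed level of marker lists in each of the 12 libraries, CPM on a log axis, with 1 point per library and the libraries grouped by cell type and treatment. ILC2 markers sit at 7584 to 8998 in 5 ILC2 libraries and at 314 in ILC2 papain + FK506 replicate 3, whose macrophage markers reach 17906, while basophil papain + FK506 replicate 7 has ILC2 markers at 3560.

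The defining basophil genes were not seen. Mcpt8 and Prss34, granule proteases, Fcer1a and Ms4a2, chains of the IgE receptor, and Cd200r3, Cyp11a1, Itga2 and Il4 were listed at 0 in all 12 libraries. Of the 12 basophil markers only 3 reached the level needed for a test, and none passed it. Gata2, a transcription factor of basophils and mast cells, was at 245, 4.56 and 0 CPM in the papain libraries and at 196, 134 and 163 in the papain + FK506 libraries, against a median of 0 in ILC2, and its log2 difference was -3.01 (SE 1.42, adjusted p = 0.269). Hdc, the enzyme that makes histamine, had values of 0.655, 60.8 and 184 as lowest, median and highest in basophil-labelled libraries and 0, 5.53 and 58.7 in ILC2. The 12 markers together summed to 58.1 to 438 CPM in basophil-labelled libraries, against 4.75 to 81.7 in ILC2, and in each basophil-labelled library the sum lay below that of the macrophage markers. Those libraries are therefore called basophil-labelled. In bulk libraries fewer cells of a type and less RNA per cell cannot be told apart.

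The main comparison set the mean of the 2 ILC2 groups against the mean of the 2 basophil-labelled groups, with limma on log2(value + 2). Of 8189 genes tested, 53 were higher in ILC2 (0.647%) and 202 were lower (2.47%) at an adjusted p under 0.05. The higher genes included Gata3, Bcl11b, Icos, Ltb and Zap70 of lymphocytes, and also Rn45s, a ribosomal RNA precursor, and Junb. Among the lower genes were Fth1 of ferritin, Psap, H2-Ab1, Apoe and Csf2ra. The median log2 difference over all tested genes was -0.47, so differences are best read against that shift. Under quantile normalization, where the median was -0.02, the higher share of the calls was 34.2% in place of 20.8%. With the 2 libraries left out, 546 of 7567 genes were called (7.22%), 127 higher (1.68%) and 419 lower (5.54%). All 53 and all 202 kept their sign, with 51 and 195 of them called. Counts of gene lists below are to be read against the shares of all genes, which are larger without the 2 libraries. For 45 of the 53 higher genes, ILC2 papain + FK506 replicate 3 lay below the highest basophil-labelled value, and for 171 of the 202 lower genes it lay above the lowest. Leaving out 1 library at a time moved the higher count to between 15, without ILC2 papain + FK506 replicate 1 or 2, and 129, without replicate 3 of that group, and the lower count to between 107 and 403, without replicates 1 and 3 of that group.

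The file-name code runs with cell type except in 2 ILC2 libraries, one of which goes against its label. Among the 8 libraries that share the code, 1 gene was called higher (0.0145%) and 251 lower (3.63%) of 6919 tested. Of the 53 higher genes 43 could be tested there, with 41 of the same sign and 1 called, and of the 202 lower genes 194 had the same sign and 79 were called. With the code as a term in the fit of all 12 libraries, 1 gene was higher (0.0122%) and 6 lower (0.0733%). None of the 202 was among them, while 50 of 53 and 194 of 202 kept their sign. Because the code varies only within ILC2, this term gives the same main differences as the 8 libraries. It is therefore no second check of sign, and both rest on 2 ILC2 libraries. Within the papain groups alone, where the code-sharing ILC2 library is replicate 3 against 3 basophil-labelled libraries, 22 genes were higher (0.318%) and 684 lower (9.89%), on the assumption that a lone sample varies as the others do.

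**Figure D2:**
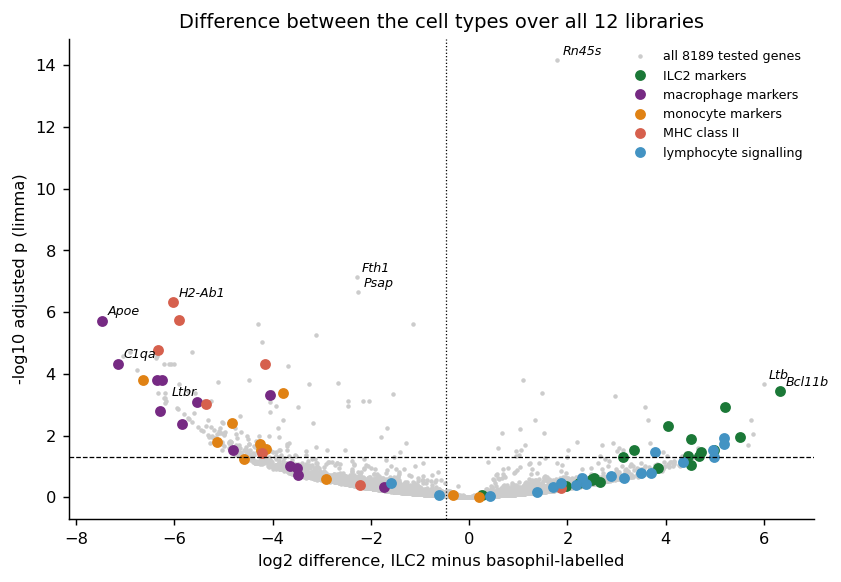
Log2 difference between ILC2 and basophil-labelled libraries (horizontal) against -log10 of the adjusted p from limma (vertical), 1 point per gene tested, with the 8189 genes of all 12 libraries. Called genes are 53 to the right and 202 to the left, the dashed line stands at an adjusted p of 0.05, and the dotted line stands at the median difference of -0.47.

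Genes of ILC2 identity were higher in ILC2 for 11 of the 20 members of the marker list that could be tested and lower for none, and all 20 had a positive difference. Their median log2 difference was 3.94, against -0.47 over all tested genes. Without the 2 libraries, which were picked by this list, 14 of 20 were called. Among the libraries that share the file-name code 8 of the 11 had a positive difference, none was called, and 3 could not be tested. ILC2 papain replicate 3, which carries that code, lay above all 6 basophil-labelled libraries for 9 of the 11.

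Among the transcription factors, Gata3, the master regulator of ILC2, was at 416, 273 and 91.5 CPM in ILC2 under papain and at 498, 246 and 0 under papain + FK506. In basophil-labelled libraries it was listed at 0 in 4, at 0.606 in replicate 8 and at 232 in replicate 7. Only the 2 libraries that go against their labels made the groups overlap. Gata3 differed by 4.67 (SE 1.40, adjusted p = 0.0472) on the log2 scale and by 7.03 (SE 1.12) without them. Rora, which encodes ROR-alpha, had a lowest, median and highest value of 23.6, 1010 and 1235 CPM in ILC2 and 0, 76.1 and 370 in basophil-labelled libraries, a difference of 4.04 (SE 0.93, adjusted p = 0.00498), or 5.20 (SE 0.99) without the 2. Bcl11b, a zinc finger factor of T cells and ILC2, had values of 45.5, 494 and 882 in ILC2 and 0, 0 and 134 in basophil-labelled libraries and differed by 6.33 (SE 1.19, adjusted p = 0.000365). Bcl11b was called under 28 of 31 alternative settings, Rora under 25 of 31 and Gata3 under 13 of 30. Of the 15 tested members of the wider list of lymphoid transcription factors, these 3 were called higher and none lower. Tox, which passed at a level of 11.9 to 50.9 CPM in ILC2 only without the 2 libraries, was at 0 in all basophil-labelled libraries.

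Receptors followed the same order. Il1rl1, which encodes ST2, had a lowest, median and highest value of 0, 259 and 499.9 CPM in ILC2, and in basophil-labelled libraries it was above 1 only in replicate 7, at 163. It differed by 4.98 (SE 1.37, adjusted p = 0.0283), and by 7.24 (SE 1.08) without the 2 libraries. Il7r, the IL-7 receptor chain that lymphocytes need to survive, had values of 15.7, 612 and 1436 in ILC2 and 6.81, 32.1 and 214 in basophil-labelled libraries, and differed by 3.12 (SE 0.94, adjusted p = 0.0487). ILC2 papain + FK506 replicate 1 was low for Il7r, at 57. Icos, a costimulatory receptor, had 37.7, 826 and 1112 in ILC2 and 0, 16.9 and 329 in basophil-labelled libraries and differed by 5.21 (SE 1.07, adjusted p = 0.00118), or by 6.78 (SE 1.14) without the 2. Klrg1, an inhibitory receptor of mature ILC2, differed by 4.71 (SE 1.34, adjusted p = 0.0332), Thy1 (CD90) by 4.45 (SE 1.32, adjusted p = 0.0448), and Ramp3, a chain of receptors for calcitonin-family peptides, by 4.52 (SE 1.14, adjusted p = 0.0127). For Icos, Klrg1, Thy1 and Ramp3 the 5 ILC2 libraries other than papain + FK506 replicate 3 lay above the 5 basophil-labelled libraries other than replicate 7. Thy1 was low in ILC2 papain replicate 3, at 89.9 against 709.7 to 1263 in the other 4.

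Of the type 2 cytokines, Il13, which drives goblet cells to make mucus, was at 629.8, 299 and 108 CPM in ILC2 under papain, at 122, 116 and 0 under papain + FK506, and at 0 in all 6 basophil-labelled libraries (adjusted p = 0.0112). Areg, which encodes amphiregulin, had 56.5, 382 and 1061 in ILC2 and 0, 48 and 223 in basophil-labelled libraries and differed by 3.36 (SE 0.94, adjusted p = 0.0295), or by 4.18 (SE 0.98) without the 2 libraries. Its highest ILC2 value was in papain replicate 3. Il5, the eosinophil growth factor, did not pass: it was at 106, 73.9 and 0 under papain and 223, 25.5 and 0 under papain + FK506, with 70.7 in basophil replicate 7 and a difference of 2.67 (SE 1.41, adjusted p = 0.328). Csf2, which encodes the growth factor GM-CSF, had a lowest, median and highest value of 0, 19.5 and 88.7 in ILC2 and was above 0 in basophil replicate 7 only. Il13 and Areg were the 2 called among 6 testable members of the cytokine list. Il4 was at 0 in every library.

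**Figure D3:**
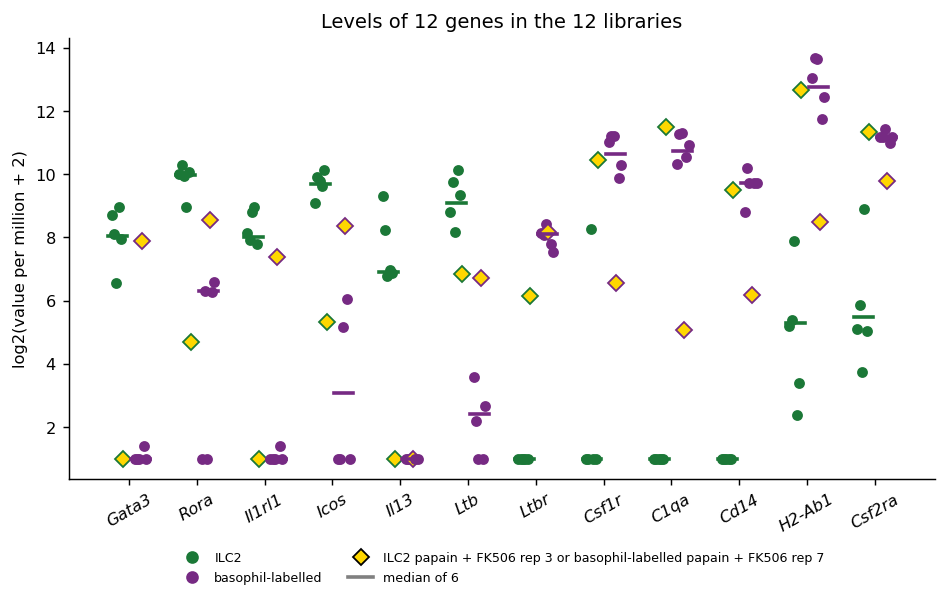
Levels of 12 genes in the 12 libraries, CPM on a log axis after adding 2, with 1 point per library, lines at the group medians and gold diamonds for the 2 libraries that go against their labels. Gata3, Rora, Il1rl1, Icos, Il13 and Ltb lie high in ILC2, Ltbr, Csf1r, C1qa, Cd14, H2-Ab1 and Csf2ra lie high in basophil-labelled libraries, and the green-edged diamond (ILC2 papain + FK506 replicate 3) lies near the basophil-labelled libraries for most of them, while the purple-edged one (basophil papain + FK506 replicate 7) lies near ILC2 for Gata3, Rora, Il1rl1 and Icos.

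Promoter windows are shown for 5 genes because the factor families on either side of the comparison, GATA in ILC2 and ETS (to which PU.1 belongs) in phagocytes, have short recognisable core letters. All 5 windows hold such a motif, so they do not stand for the named genes as a whole. Each window is the 250 bases before the first listed start of the gene in RefSeq, build GRCm38.p6, written 5′ to 3′ on the gene's strand. Capitals mark the motif here called the GATA core, spelled AGATAA or else TGATAA, in the ILC2 genes Il1rl1 and Il13. In the other 3 they mark the motif here called the ETS core, spelled GAGGAAG, in Ltb, Fcgr3 and Fcgr4, on either strand. Of these, Ltb was higher in ILC2. Fcgr3 and Fcgr4 encode Fc receptors for IgG. Il1rl1 lies at chr1:40429320-40429569 on the + strand, Il13 at chr11:53634703-53634952 on the - strand, Ltb at chr17:35194257-35194506 on the + strand, Fcgr3 at chr1:171059404-171059653 on the - strand and Fcgr4 at chr1:171018676-171018925 on the + strand.
Il1rl1: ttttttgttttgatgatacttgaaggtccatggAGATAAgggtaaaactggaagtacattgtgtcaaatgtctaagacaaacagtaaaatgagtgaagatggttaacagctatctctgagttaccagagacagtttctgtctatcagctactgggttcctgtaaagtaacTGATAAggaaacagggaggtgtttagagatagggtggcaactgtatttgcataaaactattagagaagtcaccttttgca
Il13: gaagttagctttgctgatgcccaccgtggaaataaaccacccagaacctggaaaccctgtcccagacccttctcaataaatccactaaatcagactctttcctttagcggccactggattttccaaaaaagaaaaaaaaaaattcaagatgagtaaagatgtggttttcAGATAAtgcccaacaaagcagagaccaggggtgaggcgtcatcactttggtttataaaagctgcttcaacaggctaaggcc
Ltb: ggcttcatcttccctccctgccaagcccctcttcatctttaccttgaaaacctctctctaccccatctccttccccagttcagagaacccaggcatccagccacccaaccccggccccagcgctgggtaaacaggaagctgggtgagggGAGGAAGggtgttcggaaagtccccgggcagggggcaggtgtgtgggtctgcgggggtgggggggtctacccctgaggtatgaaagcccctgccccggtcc
Fcgr3: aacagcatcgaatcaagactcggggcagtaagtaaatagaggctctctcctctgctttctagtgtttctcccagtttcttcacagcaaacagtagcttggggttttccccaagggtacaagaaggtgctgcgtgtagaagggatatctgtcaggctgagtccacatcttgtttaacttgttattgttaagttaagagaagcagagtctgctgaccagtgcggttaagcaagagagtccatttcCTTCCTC
Fcgr4: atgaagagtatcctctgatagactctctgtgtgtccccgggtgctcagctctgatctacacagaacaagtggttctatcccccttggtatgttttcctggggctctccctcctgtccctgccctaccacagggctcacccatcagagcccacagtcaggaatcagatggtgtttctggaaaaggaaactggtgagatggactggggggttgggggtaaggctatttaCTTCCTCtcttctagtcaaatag

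The GATA core was found in 17% of 27025 promoter windows and the ETS core in 10.4%. Of the 22 ILC2 markers 18 had a window, and 4 of those held the GATA core (22.2%), Il1rl1, Il13, Csf2 and Il9r, while 2 held the ETS core (11.1%). Of 10 monocyte markers with a window 5 held the ETS core (50%), Ly6c2, Fcgr3, Fcgr4, F13a1 and Ace, and 1 the GATA core (10%). Of 11 macrophage markers with a window 4 held the ETS core (36.4%), C1qc, Mrc1, Marco and Fcgr1, and 1 the GATA core (9.09%), Chil3. Among the named genes separated without overlap, 3 higher in ILC2 and 10 higher in basophil-labelled libraries had a window. The GATA core was in 0 of the 3 and in 1 of the 10 (Milr1). The ETS core was in 1 of the 3 (Ltb) and in 2 of the 10 (Ckap4 and Lair1). Gata3 and Rora themselves held neither. These shares rest on few genes and are a description of letters, with no test and no measurement of binding.

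Lymphotoxin beta and its receptor lay on opposite sides of the comparison. Ltb encodes a membrane ligand by which lymphocytes signal to stroma and myeloid cells, and Ltbr encodes its receptor. Ltb was at 447, 858 and 283 CPM in ILC2 under papain and 1130, 652 and 113 under papain + FK506. In basophil-labelled libraries it was 0 to 9.99, with 103 in replicate 7. The 6 ILC2 libraries did not overlap the 6 basophil-labelled libraries, even with the 2 doubtful ones kept. Ltb differed by 5.99 (SE 1.09, adjusted p = 0.000217), and by 7.29 (SE 1.01) without the 2. Ltbr was listed at 0 in 5 ILC2 libraries and at 69.1 in papain + FK506 replicate 3, against 185, 275 and 343 as lowest, median and highest in basophil-labelled libraries, and differed by -6.17 (SE 1.23, adjusted p = 0.000756). Among the libraries that share the file-name code the difference was 4.65 for Ltb and -4.45 for Ltbr, and only that of Ltbr passed. Ltb was called under 28 of 31 alternatives and Ltbr under 29 of 31.

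Il2rg and 2 chains that pair with it, Il2rb and Il7r, were among the cytokine receptor genes higher in ILC2. Il2rg, the shared chain of the receptors for IL-2, IL-7 and IL-9, had 151, 1877 and 3231 CPM in ILC2 and 62.5, 168 and 342 in basophil-labelled libraries, and differed by 2.96 (SE 0.57, adjusted p = 0.000525), or by 3.79 (SE 0.49) without the 2 libraries. Only ILC2 papain + FK506 replicate 3 reached down into the basophil range. Il2rb, the signalling partner for IL-2, differed by 3.67 (SE 0.95, adjusted p = 0.0168). Cish, a feedback inhibitor induced by STAT5, had 163, 626 and 1007 in ILC2 and 24.8, 71.6 and 169 in basophil-labelled libraries and differed by 2.92 (SE 0.76, adjusted p = 0.0171). Tnfrsf18 (GITR), a costimulatory receptor named after its values were seen, was at 0 to 1.06 in 5 basophil-labelled libraries and at 303 in replicate 7, against 186 to 862 in the 5 ILC2 libraries other than papain + FK506 replicate 3, and differed by 5.73 (SE 1.26, adjusted p = 0.00312). Of 29 cytokine receptor genes tested, 4 were higher in ILC2 (Il2rb, Il2rg, Il7r and Il1rl1) and 5 lower (Csf2ra, Csf2rb, Csf1r, Tgfbr1 and Tnfrsf1a).

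Signalling genes shared with T cells were higher in ILC2 for 5 of 19 tested and lower for none, with a median log2 difference of 2.88. Without the 2 libraries 8 of 19 were called. In the libraries with the shared code 3 of the 5 could not be tested, and the other 2 were positive and not called. The 5 were Zap70, a kinase of antigen receptor signalling (difference 4.96 (SE 1.38, adjusted p = 0.0295)), Lat, the adaptor it phosphorylates (4.99 (SE 1.50, adjusted p = 0.0493)), Sh2d2a, an adaptor of lymphocytes (5.18 (SE 1.37, adjusted p = 0.0191)), Ptprcap, which binds the phosphatase CD45 (5.19 (SE 1.30, adjusted p = 0.0123)), and Itgb7, the beta 7 integrin chain (3.79 (SE 1.08, adjusted p = 0.0332)). Hcst, which encodes the adaptor DAP10 of NKG2D, had 116, 376 and 595 CPM in ILC2 and 21.1, 40.7 and 59.3 in basophil-labelled libraries without overlap, and differed by 3.04 (SE 0.83, adjusted p = 0.0255). Fnbp1, which encodes a membrane-curving protein, likewise did not overlap (193, 886 and 1089 against 12.7, 78.3 and 92.2) and differed by 3.58 (SE 0.74, adjusted p = 0.00118).

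Of the 8 T cell markers listed 3 could be tested, and 1, Cd3d, was higher in ILC2. Cd3d, a chain of the T cell receptor complex, was at 304, 684 and 0 CPM in ILC2 under papain and at 679, 477 and 45.5 under papain + FK506, and at most 3.88 in basophil-labelled libraries, and differed by 5.77 (SE 1.40, adjusted p = 0.00891). Lat and Cd163l1, the latter a scavenger receptor gene of some T cells, were also at 0 in ILC2 papain replicate 3 while present in the same 4 ILC2 libraries. Cd163l1 was at 547 to 884 in those 4 and at 0 in all 6 basophil-labelled libraries (adjusted p = 0.0203). Cd3e was at 100.2 to 397 in the 4 and at 0 in the other 8 libraries, and did not pass (adjusted p = 0.0831). The 8 T cell markers listed summed to 537 to 1076 CPM in these 4 libraries, to 0 in ILC2 papain replicate 3 and to 75.4 in papain + FK506 replicate 3, and to 0 to 52.6 in basophil-labelled libraries, where 5 to 8 members were at 0. These 4 libraries are the ones with the other file-name code. Their part in the result was not tested. Gata3, Il1rl1, Bcl11b, Klrg1, Icos and Zap70 were present in ILC2 papain replicate 3, where the 8 T cell markers were all at 0. That library had the fewest genes above 0 (3134), so a 0 there does not show absence. Trac, Trbc1 and Trbc2, also on the marker list, were not among the genes listed. Whether T cells were part of any library was not tested.

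**Figure D4:**
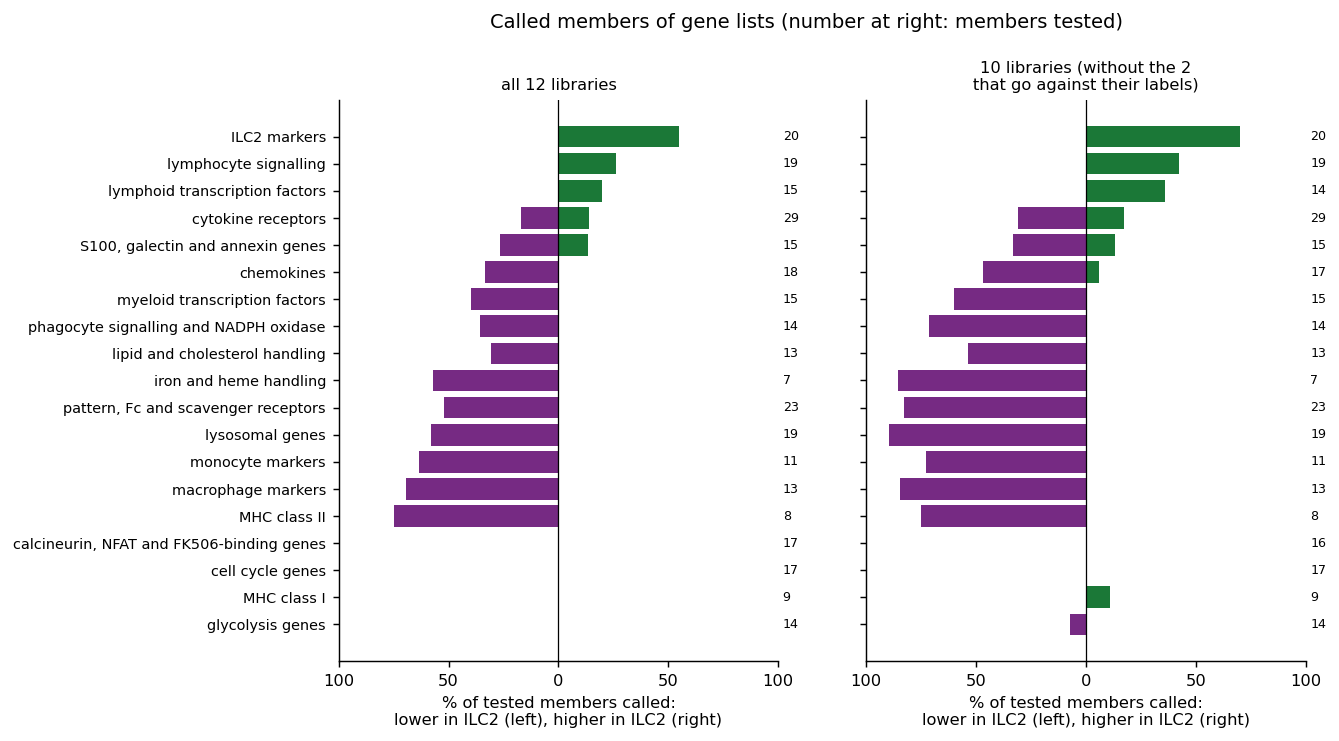
Percent of the tested members called higher (right) and lower (left) in ILC2 for 19 gene lists, with all 12 libraries and with the 2 libraries that go against their labels left out. Lymphoid lists have calls to the right, and macrophage, monocyte, class II, lysosomal and receptor lists have calls to the left, with more calls in 10 libraries than in 12 for most lists.

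On the basophil-labelled side, macrophage markers were lower in ILC2 for 9 of 13 tested and monocyte markers for 7 of 11, and no member of either list was higher. Median log2 differences were -5.53 and -4.24. Without the 2 libraries, picked in part by the macrophage markers, 11 of 13 and 8 of 11 were called. Among the libraries that share the file-name code all 16 kept their sign, and 2 of the 9 and 3 of the 7 were called. ILC2 papain replicate 3 lay outside the 6 basophil-labelled values for 5 of the 9 and 6 of the 7. C1qa, a chain of the complement starter C1q, was at 1287, 2440 and 2531 CPM in basophil-labelled libraries under papain and at 31.4, 1483 and 1949 under papain + FK506. It was listed at 0 in 5 ILC2 libraries and at 2898 in papain + FK506 replicate 3. The level in that ILC2 library was thus above every basophil-labelled value, and the lowest basophil-labelled value was that of replicate 7. C1qa differed by -7.15 (SE 1.18, adjusted p = 4.68e-05). Csf1r, the receptor for the macrophage growth factor M-CSF, had 91.5, 1660 and 2368 in basophil-labelled libraries, was at 0 in 4 ILC2 libraries, at 302 in papain replicate 3 and at 1385 in papain + FK506 replicate 3, and differed by -6.24 (SE 1.11, adjusted p = 0.000163), or by -8.40 (SE 1.22) without the 2. Apoe, the lipid carrier apolipoprotein E, reached 11620 in basophil replicate 5 and differed by -7.46 (SE 1.04, adjusted p = 1.88e-06).

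Among monocyte genes, Cd14, the co-receptor for bacterial lipopolysaccharide, had 70.7, 835 and 1172 CPM in basophil-labelled libraries and was above 0 in only 1 ILC2 library, papain + FK506 replicate 3, at 715. It differed by -6.64 (SE 1.18, adjusted p = 0.000163) and also passed among the libraries that share the file-name code (-3.81). Within that code the difference did not pass for Csf1r (-0.68), Apoe (-1.07), Lyz2 (-0.81) or Fcgr3 (-0.47). Lyz2, the lysozyme of myeloid cells, had 11.4, 49.4 and 1437 in ILC2 and 833, 1150 and 1310 in basophil-labelled libraries and differed by -3.78 (SE 0.72, adjusted p = 0.000412). Fcgr3, whose promoter window is printed above, had 0, 14.8 and 600.1 and 84.3, 565 and 1271 and differed by -4.83 (SE 1.09, adjusted p = 0.00401). Fcgr4 was at 0 in all 6 ILC2 libraries, the doubtful one included, and at 13.2 to 206 in basophil-labelled libraries (adjusted p = 0.0166). Il1b, the inflammatory cytokine IL-1 beta, named after its values were seen, had 486, 2436 and 4737 in basophil-labelled libraries, was at 0 in 4 ILC2 libraries and differed by -6.90 (SE 1.09, adjusted p = 2e-05).

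Class II histocompatibility genes, which present peptide to helper T cells, were lower in ILC2 for 6 of 8 tested, with a median of -4.79, and the same number was called without the 2 libraries. Within the shared file-name code 5 of the 6 kept their sign and 1 was called. ILC2 papain replicate 3 lay outside the 6 basophil-labelled values for 2 of the 6. H2-Ab1 was at 8518, 13017 and 12872 CPM in basophil-labelled libraries under papain and at 357, 3392 and 5605 under papain + FK506. In ILC2 it was at 3.16 to 232 in 5 libraries and at 6508 in papain + FK506 replicate 3. The 5 and 5 libraries left after setting the 2 aside did not overlap. H2-Ab1 differed by -6.03 (SE 0.79, adjusted p = 4.66e-07), and by -8.26 (SE 0.55) without the 2. H2-Aa differed by -5.91 (SE 0.82, adjusted p = 1.82e-06), H2-Eb1 by -6.33 (SE 0.98, adjusted p = 1.71e-05) and Cd74, the invariant chain that guides class II molecules to the endosome, by -4.16 (SE 0.69, adjusted p = 4.81e-05). H2-DMa, which helps to load the peptide, differed by -5.36 (SE 1.09, adjusted p = 0.000938). Near-identical family members can share reads in these genes, so single values are uncertain. Class I genes had no call among 9 tested and a median of 0.03, against -0.47 over all genes.

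Lysosomal genes were lower in ILC2 for 11 of 19 tested, with a median of -2.92, and for 17 of 19 without the 2 libraries. Psap, the precursor of the saposins that help to break down sphingolipids, had 680.3, 1731 and 13512 CPM in ILC2 and 3714, 11851 and 15951 in basophil-labelled libraries and differed by -2.26 (SE 0.29, adjusted p = 2.25e-07), or by -3.03 (SE 0.29) without the 2. Ctss, a cathepsin that trims the invariant chain, had 9.86, 135 and 3638 and 430, 3781 and 5550 and differed by -4.21 (SE 0.64, adjusted p = 9.27e-06). Ctsh, another cathepsin, was at 0 in 5 ILC2 libraries and at 759 in papain + FK506 replicate 3, against 569 to 874 in basophil-labelled libraries, replicate 7 included, and differed by -7.05 (SE 1.13, adjusted p = 2.72e-05). Among the libraries that share the file-name code 3 of the 11 lysosomal genes were called, Ctsh among them (-4.19), while Psap (-0.81) and Ctss (-1.30) did not pass. Iron handling genes were lower for 4 of 7 tested: Fth1 and Ftl1, the ferritin chains, differed by -2.29 (SE 0.28, adjusted p = 7.17e-08) and -3.11 (SE 0.46, adjusted p = 5.31e-06), Hmox1, which breaks down heme, by -3.78 (SE 0.84, adjusted p = 0.00318), and Hp, haptoglobin, by -4.66 (SE 1.27, adjusted p = 0.0244). None of these 4 passed within the shared code. Lipid handling genes were lower for 4 of 13, among them Lpl, lipoprotein lipase, with 0, 3.4 and 629.9 against 535, 862 and 1136 and a difference of -6.37 (SE 1.03, adjusted p = 2.98e-05).

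Pattern, Fc and scavenger receptors were lower in ILC2 for 12 of 23 tested, with a median of -4.46, and for 19 of 23 without the 2 libraries. Within the shared code all 12 kept their sign and 5 were called. Sirpa, an inhibitory receptor that reads CD47, was at 0 in 4 ILC2 libraries, at 73 and 457 in papain + FK506 replicates 2 and 3, and at 246, 766 and 1096 in basophil-labelled libraries, and differed by -6.20 (SE 1.03, adjusted p = 4.81e-05). Tyrobp, the adaptor DAP12, differed by -6.00 (SE 1.00, adjusted p = 4.81e-05) and Fcer1g, the common Fc receptor gamma chain, by -3.94 (SE 0.81, adjusted p = 0.00113). Fcer1g is part of the IgE receptor of basophils as well as of the IgG receptors of phagocytes, and the other chains of the IgE receptor were at 0. Of 14 phagocyte signalling genes 5 were lower, among them Cybb, the catalytic subunit of the NADPH oxidase, at 0 in 5 ILC2 libraries and 365 to 915 in basophil-labelled libraries (difference -6.76 (SE 1.15, adjusted p = 7.3e-05)), and Syk, a kinase downstream of Fc receptors (-4.87 (SE 1.24, adjusted p = 0.0148)). The adaptor pair Hcst and Tyrobp thus lay on opposite sides, DAP10 higher and DAP12 lower in ILC2.

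The 5 cytokine receptor genes lower in ILC2 included both chains of the GM-CSF receptor. Csf2ra, the alpha chain of the GM-CSF receptor, was at 2322, 2288 and 2763 CPM in basophil-labelled libraries under papain and 884, 2013 and 2291 under papain + FK506. ILC2 had 32.6, 55.9 and 11.4 under papain and 473, 30.6 and 2600 under papain + FK506. Without the 2 doubtful libraries the groups did not overlap. Csf2ra differed by -4.29 (SE 0.61, adjusted p = 2.47e-06), by -5.23 (SE 0.68) without the 2 and by -3.40 among the libraries that share the file-name code, and passed in each. Csf2rb, the beta chain shared by the receptors for IL-3, IL-5 and GM-CSF, was at 0 in 5 ILC2 libraries and at 130 to 634 in basophil-labelled libraries, and differed by -6.20 (SE 1.21, adjusted p = 0.000599). Il3ra, the alpha chain of the IL-3 receptor and one of the basophil markers, was at most 16.4 in ILC2 and 14.3 in basophil-labelled libraries, with a difference of 0.27 (SE 1.19, adjusted p = 0.935). Tgfbr1 and Tnfrsf1a, receptors for TGF-beta and TNF, differed by -4.37 (SE 1.29, adjusted p = 0.0438) and -3.53 (SE 1.05, adjusted p = 0.0458).

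Chemokine genes were lower in ILC2 for 6 of 18 tested, against 2.47% of all genes, and none was higher. Within the shared code 2 of the 6 were called. Cxcl2, which attracts neutrophils, was among the most abundant transcripts of both cell types, with 3092, 12634 and 25650 CPM against 979, 4228 and 17293 in ILC2, and differed by -1.55 (SE 0.30, adjusted p = 0.000436), but within the shared code by only -0.05, which did not pass. Ccl3 was at 0 in 4 of 6 ILC2 libraries and at 79.2, 503 and 815 in basophil-labelled libraries and differed by -6.18 (SE 1.18, adjusted p = 0.000412), and Ccl6 differed by -4.06 (SE 0.81, adjusted p = 0.000805). Cxcl16, at 0 in 5 ILC2 libraries, differed by -5.80 (SE 1.24, adjusted p = 0.002), and its receptor Cxcr6, at 381 to 656 in 4 ILC2 libraries and 0 in both replicates 3, did not pass with all 12 (adjusted p = 0.0885) and passed without the 2. Ccl5 had 113, 547 and 956 in ILC2 and 0, 134 and 284 in basophil-labelled libraries and did not pass (difference 2.76 (SE 0.85, adjusted p = 0.056)). With quantile normalization, with the values as deposited or with Rn45s left out of the sum, 1 or 2 chemokines were called higher in ILC2.

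Transcription factors of the myeloid lineage were lower in ILC2 for 6 of 15 tested, and for 9 of 15 without the 2 libraries. Of the 6, 1 was called within the shared code, where all kept their sign. Spi1, which encodes PU.1, was at 0 in 4 ILC2 libraries, 29.4 in papain replicate 3 and 237 in papain + FK506 replicate 3, against 62.2, 337 and 485 in basophil-labelled libraries, and differed by -5.26 (SE 1.21, adjusted p = 0.00512). Cebpd and Cebpa, factors of the C/EBP family, differed by -5.93 (SE 1.23, adjusted p = 0.00135) and -4.75 (SE 1.26, adjusted p = 0.0198), Zeb2 by -4.89 (SE 1.28, adjusted p = 0.0176) and Klf4 by -1.40 (SE 0.40, adjusted p = 0.0332). Among AP-1 and immediate early genes Junb was higher in ILC2 (0.67 (SE 0.16, adjusted p = 0.00832)) while Egr1 (-2.46 (SE 0.49, adjusted p = 0.000756)), Ier3 (-2.67 (SE 0.48, adjusted p = 0.000203)) and Klf4 were lower, of 23 tested. Junb was at 4525 and 5096 in the 2 ILC2 libraries that carry the basophil file-name code and at 9866 to 11081 in the other 4, against 4392 to 5644 in basophil-labelled libraries, and within the shared code its difference was -0.05.

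Of the IL-4 and IL-13 response genes, 3 of 13 tested were lower in ILC2 and 1, Cish, was higher. The shares over all genes were 2.47% and 0.647%. Chil3, a chitinase-like protein of alternatively activated macrophages, had 645, 1562 and 4752 CPM in basophil-labelled libraries and 0, 131 and 1351 in ILC2 and differed by -4.05 (SE 0.78, adjusted p = 0.000477). Retnla, which encodes RELM-alpha, had 99.9, 1302 and 3559 and 0, 13.1 and 2242 and differed by -5.33 (SE 1.07, adjusted p = 0.000827). Its 1 high ILC2 value under papain was that of replicate 3, at 2242. Tgm2, transglutaminase 2, differed by -4.01 (SE 0.76, adjusted p = 0.000376), and Mrc1, the mannose receptor, did not pass (-3.64 (SE 1.23, adjusted p = 0.0937)). Of 10 eicosanoid genes tested 1 was called on each side, where 0.647% of all genes were called higher and 2.47% lower, so these are given as single genes. Alox5ap, which feeds arachidonic acid to 5-lipoxygenase, had 0, 3.26 and 872 in ILC2 and 244, 867 and 1258 in basophil-labelled libraries and differed by -6.07 (SE 1.01, adjusted p = 4.81e-05). Ltb4r1, the receptor for leukotriene B4, was higher in ILC2, with 107, 557 and 886 against 0.616, 86.9 and 306 and a difference of 3.00 (SE 0.85, adjusted p = 0.0313).

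Genes whose 12 values separate the cell types without overlap were few. With all libraries, 12 tested genes lay wholly above in ILC2 (0.147%) and 43 wholly below (0.525%), and 28 of the 255 called genes were among these 55. With the 2 libraries set aside, 158 (2.09%) and 490 (6.48%) did not overlap. Among called genes with a mean of at least 100 CPM in basophil-labelled libraries that were not listed at 0 throughout ILC2, those separated with the largest differences beside Ltbr were Ckap4, a membrane protein of the endoplasmic reticulum (-5.24 (SE 1.29, adjusted p = 0.0102)), Milr1, the inhibitory receptor allergin-1 of mast cells and phagocytes (-5.16 (SE 1.29, adjusted p = 0.0123)), Sulf2, a sulfatase of heparan sulfate (-5.10 (SE 1.32, adjusted p = 0.0161)), F11r, the junctional adhesion molecule JAM-A (-5.09 (SE 1.22, adjusted p = 0.00809)), and Rell1 (-4.89 (SE 1.26, adjusted p = 0.0157)). Milr1 was at 42.7 to 242 CPM in basophil-labelled libraries, 1.7 and 37.7 in ILC2 papain + FK506 replicates 2 and 3, and 0 in the other 4. F11r was at 126 to 385 against 0 in 4 ILC2 libraries, 36.1 in papain replicate 2 and 119 in papain + FK506 replicate 3. The others were Lair1, a collagen receptor, Cmklr1, the chemerin receptor, Trf, transferrin, Ptpn12, a phosphatase, Fcgrt, the neonatal Fc receptor, and Tgfbr1, with differences between -4.37 and -4.83. Ptpn12 was at most 39.2 in ILC2, in papain replicate 3, and at 149 to 344 in basophil-labelled libraries.

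For 3 called genes all 6 ILC2 libraries were at 0, ILC2 papain + FK506 replicate 3 included. Tns3, a tensin of cell adhesion sites, was at 30 to 94.2 CPM in basophil-labelled libraries (adjusted p = 0.0265), Wdfy3, an autophagy adaptor, at 17.2 to 145 (adjusted p = 0.0335), and Fcgr4 was described above. For 3 others all 6 basophil-labelled libraries were at 0, replicate 7 included: Il13, Cd163l1 and Sit1, an inhibitory adaptor of lymphocytes, at 24.6 to 309 in 5 ILC2 libraries (adjusted p = 0.0446).

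Rn45s, the 45S precursor of ribosomal RNA, had the smallest p of all genes. It was at 192752, 174963 and 101444 CPM in ILC2 under papain and 39617, 189610 and 63101 under papain + FK506, against 27131 to 35075 in basophil-labelled libraries. The groups did not overlap, and Rn45s differed by 1.79 (SE 0.14, adjusted p = 7e-15). That SE rests mostly on genes of similar level (51.92 degrees of freedom against 8 from the libraries) and understates the spread in ILC2. Without the 2 libraries that go against their labels the SE was 0.28 (difference 1.87, adjusted p from limma 0.00092). Among the libraries that share the file-name code the difference was 1.35 and passed. Its level is part of the sum by which each library was scaled, and with Rn45s left out of that sum 61 genes were called higher and 174 lower. Malat1, a nuclear RNA, was lower in ILC2 (-1.15 (SE 0.16, adjusted p = 2.47e-06)), but ILC2 papain + FK506 replicate 3 had 26250 and papain replicate 3 17883, against 5313 to 9881 in the other 4, and within the shared code its difference was -0.15. Ribosomal protein genes had 3 calls higher (Rpl13, Rpl13a and Rps20) and none lower of 70 tested, where 0.647% of all genes were higher. Rpl13a turned to -0.29 within the shared code.

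Several groups showed no call in either direction with all 12 libraries. They were the calcineurin, NFAT and FK506-binding genes (0 of 17 tested), cell cycle (0 of 17), glycolysis (0 of 14), unfolded protein response (0 of 14), class I histocompatibility (0 of 9), survival (0 of 10) and pan-leukocyte genes (0 of 13). At 3.11% of all genes called, lists of this size would hold few calls at the background rate. Without the 2 libraries 3 pan-leukocyte genes, 1 survival gene and 1 class I gene were called higher, and 1 survival gene and 1 glycolysis gene lower. Ptprc, which encodes CD45 and marks all leukocytes, had 207, 314 and 695 CPM in ILC2 and 85.8, 258 and 391 in basophil-labelled libraries, and pan-leukocyte genes summed to 8230 to 13201 and 6431 to 9805. Of the calcineurin group, Nfatc2 was at 66.5 to 151 in the 4 ILC2 libraries other than the replicates 3, where it was at 0 (difference 2.59 (SE 1.41, adjusted p = 0.342)), and Nr4a3, a gene that NFAT induces in lymphocytes, had 209, 369.7 and 688 in ILC2 and 86.9, 126 and 229 in basophil-labelled libraries (1.43 (SE 0.66, adjusted p = 0.259)).

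Markers of other cells differed between libraries as well. The 14 fibroblast and smooth muscle markers had sums of 249.6 to 3627 CPM in ILC2 and 2037 to 8622 in basophil-labelled libraries, and those of AEC2 markers were 0 to 10911 and 1399 to 18714. Of the AEC2 list 1 of 11 was called lower (Sftpa1), of the fibroblast list 2 of 14 (Col1a2 and Fn1) and of the neutrophil list 2 of 8 (S100a8 and S100a9). The AEC1 (Hopx), airway epithelial (Scgb1a1) and platelet and erythroid (Pf4) lists had 1 of 5 each. Over all genes 2.47% were called lower, and single calls in lists of this size are not read as a change of the list. Basophil papain replicate 4 carried 6077 of neutrophil markers against 501.9 to 1014 in the other 5, and 5273 of platelet and erythroid markers. Airway epithelial markers reached 10406 and 6127 in basophil papain + FK506 replicates 7 and 8. Their part in the differences was not tested.

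Taken within each treatment, the comparison had fewer calls. Under papain alone 22 genes were higher in ILC2 (0.269%) and 87 lower (1.06%), 109 in all (1.33%), and under papain + FK506 1 was higher (0.0122%) and 10 lower (0.122%), 11 in all (0.134%). With the file-name code as a term 1 gene was higher (0.0122%) and 44 lower (0.537%) under papain and none under papain + FK506. Both libraries that go against their labels are papain + FK506 libraries. Without them 40 genes were higher (0.529%) and 126 lower (1.67%) under papain, and 15 (0.198%) and 44 (0.581%) under papain + FK506, with 2 libraries a group in the latter. Leaving out 1 library at a time gave 9 to 38 and 46 to 148 genes under papain, lowest without ILC2 papain replicate 1 and basophil papain replicate 5 or 6, and 1 to 17 and 0 to 88 under papain + FK506, highest without ILC2 papain + FK506 replicate 3. The treatments share no library, but the file-name code is laid out alike in both, so equal signs cannot separate cell type from code. Of the 109 genes called under papain, 104 had the same sign under papain + FK506 (95.4%), against 61.0% of all tested genes, and without the 2 libraries 165 of 166 did, against 63.8%. The way the 2 were picked can favour the latter count. With all 12 libraries 7 genes were called in both treatments: Fth1, Ftl1, H2-Aa, H2-Eb1, Malat1, Rn45s and Mt1, a metallothionein named after its values were seen. Without the 2 libraries 43 were.

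**Figure D5:**
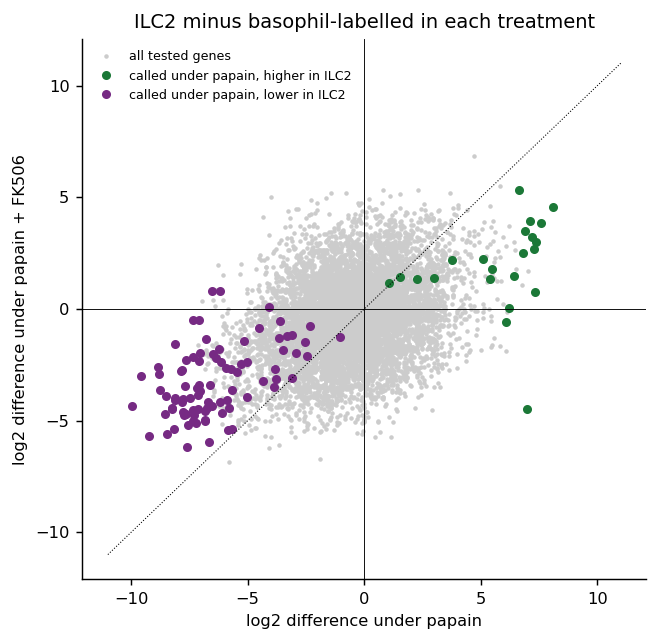
Log2 difference between ILC2 and basophil-labelled libraries under papain (horizontal) and under papain + FK506 (vertical), 1 point per gene tested with all 12 libraries. Of the 109 genes called under papain 104 lie in the quadrants of equal sign, and most lie closer to 0 on the vertical axis. The dotted line marks equal differences.

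Whether FK506 acted differently in the 2 cell types was tested with the interaction, that is, the change from papain to papain + FK506 in ILC2 minus that in basophil-labelled libraries. No gene passed in either direction (0.0%). Without adjustment 347 of 8189 genes had a p under 0.05, the smallest adjusted p was 0.441, and limma was the only tool run for this contrast. Without the 2 libraries 287 genes had an unadjusted p under 0.05 and the smallest adjusted p was 0.977. Among the libraries that share the file-name code, where each ILC2 group is 1 library and that of papain + FK506 goes against its label, 297 genes were called positive (4.29%) and 16 negative (0.231%). The genes with the smallest p were Zcchc10, a zinc finger protein gene, with an adjusted p of 0.441, then Tep1, a telomerase-associated protein gene, with 0.976, Psap at 2.10 (SE 0.57, adjusted p = 0.976), Rora at -6.54 (SE 1.85, adjusted p = 0.976) and Csf2ra at 4.13 (SE 1.22, adjusted p = 0.976). Zcchc10 was at 86.5, 337 and 516 CPM in ILC2 under papain and at 0, 3.4 and 0 under papain + FK506. In basophil-labelled libraries it was at 0 in all 3 under papain and at 105, 43.2 and 47.4 under papain + FK506. For Psap and Csf2ra ILC2 papain + FK506 replicate 3 was the highest ILC2 library and basophil papain + FK506 replicate 7 the lowest basophil-labelled one, and for Rora they were the lowest and the highest. Csf2ra was also high in ILC2 papain + FK506 replicate 1, at 473.

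For single genes the difference under each treatment can be set side by side. The values under papain + FK506 include the 2 libraries that go against their labels. Rora differed by 7.31 (SE 1.31, adjusted p = 0.000277) under papain and by 0.77 (SE 1.31, adjusted p = 0.916) under papain + FK506. In the latter it was at 23.6 CPM in ILC2 replicate 3 and at 370 in basophil replicate 7. Ltb differed by 6.65 (SE 1.55, adjusted p = 0.00895) and 5.33 (SE 1.55, adjusted p = 0.249). C1qa differed under papain with an adjusted p of 0.000126 against 3 ILC2 libraries at 0, and by -4.34 (SE 1.67, adjusted p = 0.454) under papain + FK506. There it was at 2898 CPM in ILC2 replicate 3 and at 31.4 in basophil replicate 7. Fth1 differed by -2.47 (SE 0.39, adjusted p = 5.06e-05) and -2.11 (SE 0.39, adjusted p = 0.00346), so that ferritin passed in both. Il13 was higher under papain (adjusted p = 0.0438), and under papain + FK506 it did not pass (adjusted p = 0.582) with 122, 116 and 0 CPM. No gene passed the interaction (adjusted p from limma 0.976 for Rora, Ltb, C1qa and Il13), so a difference between the treatments was not shown.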

How the data were processed

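Gene expression was measured with Lexogen QuantSeq, which reads the 3' ends of transcripts, from 10 ng of RNA per library, per the labels' protocols. Tools named in the submitters' processing notes are STAR 2.7.0c and featureCounts 1.6.0, with mm10 and GRCm38.p6 as builds. Strand and multi-read settings are not given in the sources used here. The authors deposited CPM for the basophil libraries and, for the ILC2 libraries, CPM rounded to whole numbers, treated here as a score on the CPM scale. In the basophil libraries 95.1 to 100.0% of values up to 30 CPM were whole multiples of 0.32 to 0.4365 CPM, taken as 1 read. No count test was run, because the ILC2 values hold no reads.

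The tables shared 20049 genes, of which 27 lacked a value in some library and were left out. Each library was rescaled so that the other 20022 genes summed to 1000000 (factors 1.491 to 1.698). Genes with at least 10 CPM in at least 3 of 12 libraries were fitted as log2(value + 2) with limma 3.58.1 (trend, not robust) in R 4.3.3 as 4 group means, with two-sided tests and Benjamini-Hochberg adjustment over 8189 genes at 0.05. Differences are on that log2 scale and come out too small for low genes. The code was tested on simulated data. Groups came from the labels. The ILC2 replicate numbers do not pair the libraries (correlations of deviations 0.046, 0.071 and 0.163 for equal numbers).

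Named genes are the up to 12 per direction with the largest difference among called genes without overlap, a mean of at least 100 CPM and some value above 0 on the lower side. Up to 8 per direction that are at 0 in all libraries of one cell type, a fixed set of identity genes, the up to 5 smallest p of each list, the 5 smallest p of the interaction and the 8 highest means were added, and other genes are marked as named after their values were seen. The members and lists were chosen with earlier results of these data known. The 31 alternatives comprised 28 planned and 3 chosen after seeing the data.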

Additional observations from a re-analysis of the deposited data

Results flagged for a closer look

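In each cell type, the summed level of each marker list and the level of each identity gene were searched for a library far from the other 5, with a gap to its nearest neighbour above Dixon's critical value as a share of the whole range. Of 72 groups of 6 libraries, 32 had such a library. Dixon's critical value allows about 1 in 20 by chance in independent groups. These groups share libraries and genes, and some hold many equal values. The libraries that go against their labels were picked by some of the same markers. The count is therefore a description and cannot be set against chance. Values are rescaled CPM.

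Most of the flags fell on the 2 libraries that go against their labels. ILC2 papain + FK506 replicate 3 stood apart for the sums of ILC2 markers (314.2), macrophage markers (17906), monocyte markers (5253), eosinophil markers (333) and platelet and erythroid markers (1230), and for Csf1r (1385), Cd68 (381.7), C1qa (2898) and Lyz2 (1437). Basophil papain + FK506 replicate 7 stood apart for the sums of ILC2 markers (3560), mast cell markers (154.4) and monocyte markers (1927). It did so also for Gata3 (232.1), Rora (370), Il1rl1 (162.9), Il7r (214.3), Il5 (70.72), Areg (223), Klrg1 (182.9), Icos (329.4) and Thy1 (404.3), and for Kit (154.4), the stem cell factor receptor, and Cpa3 (30.78), a mast cell protease.

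Basophil papain replicate 4 stood apart for the sums of neutrophil markers (6077), T cell markers (52.64), B cell markers (261.1) and platelet and erythroid markers (5273). Basophil papain replicate 6 did so for Cd68 (859.7). ILC2 papain replicate 3 stood apart for neutrophil markers (1039) and Areg (1061), and ILC2 papain + FK506 replicate 1 for B cell markers (174) and Cd3e (397.1). No reason was tested for any of these.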

How the results depend on the processing

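The calls depended on the libraries kept and on how the spread was modelled, more than on their direction. In the main comparison (53 genes higher and 202 lower in ILC2) the counts were 4 and 15 with no filter on low values, 7 and 68 with limma without a trend, and 242 and 494 without both ILC2 replicate 3 libraries. They were 1 and 6 with the file-name code as a term, 127 and 419 without the 2 libraries that go against their labels, and 247 and 513 without those 2 and ILC2 papain replicate 3. Only the higher count moved by over 1.5 times with TMM factors (32), quantile normalization (110), robust limma (80) and the libraries that share the file-name code (1). The exact two-sided rank-sum test called 0 and 0, with 962 genes at an unadjusted p under 0.05, 55 at 0.00216, the smallest p it can give, and a smallest adjusted p of 0.271. Leaving out 1 library at a time gave 15 to 129 and 107 to 403. Beyond 1.5 times, both counts moved to 15 and 107 without ILC2 papain + FK506 replicate 1, 15 and 123 without replicate 2, 129 and 403 without replicate 3, 35 and 110 without basophil replicate 4, 33 and 119 without 5, 24 and 115 without 8, and 30 and 130 without 9. The higher count alone moved to 21, 25 and 82 without ILC2 papain replicates 1, 2 and 3.

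Under papain (22 and 87) the counts were 46 and 158 with a pseudocount of 10, 1 and 1 with no filter, 1 and 44 with the code term, 58 and 162 without both ILC2 replicate 3 libraries, 0 and 0 without a trend, and 70 and 185 without the 3 libraries. The higher count was 13 with a pseudocount of 1, 14 with TMM, 59 with quantile normalization, 46 with robust limma and 40 without the 2 libraries, and the lower count was 684 in the libraries that share the code. Leaving out 1 library gave 9 to 38 and 46 to 148. Under papain + FK506 (1 and 10) they were 4 and 27 with a pseudocount of 10, 2 and 20 with quantile normalization, 46 and 214 without both ILC2 replicate 3 libraries, 15 and 44 without the 2 libraries and 57 and 187 without the 3. They were 0 and 3 with TMM, 0 and 2 with robust limma, and 0 and 0 with no filter, with a filter on 6 libraries, with the code term, in the libraries that share the code and without a trend. The lower count was 2 with a pseudocount of 1, 3 with median-of-ratios factors, 16 with values as deposited and 3 with Rn45s left out of the sum. Leaving out 1 library gave 1 to 17 and 0 to 88.

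For the interaction (0 and 0) the code term gave 1 positive, the libraries that share the code 297 positive and 16 negative, and the fit without a trend 1 negative. In the libraries that share the code each ILC2 group is 1 library, assumed to vary as the others do, and 1 of these 2 goes against its label. Leaving out 1 library gave 0 to 3 and 0 to 1. In a fit with the replicate block by the ILC2 title numbers, which do not pair the libraries, the counts were 76 and 281 in the main comparison, 51 and 182 under papain, 8 and 40 under papain + FK506, and 1 positive for the interaction. Single genes turned sign in few cases. With the code term and in the libraries that share the code, Sftpa1 was at 0.87, Junb at -0.05, Cd9 at 0.51 and Rpl13a at -0.29, Lat was at -0.47 with the code term, and Rn45s was at -0.00 with quantile normalization. The cause of these shifts was not tested. Depth is unknown for ILC2, and with 2 or 3 libraries a group only large differences could pass.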
